A study of Mus musculus with 6 samples.

Results

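The Notch pathway was followed in liver through 10 genes. They were the receptors Notch1, Notch2, Notch3 and Notch4, the ligands Jag1, Jag2 and Dll4, and the target genes Hes1, Hey1 and Heyl, taken by symbol from a table of 55401 genes. All 10 had 1 entry each, and all 10 were among the 18931 genes that passed the filter on low counts. RNA had been sequenced from the livers of 6 male mice. The 3 mice labelled Prdx1(lox/lox) carried floxed alleles of Prdx1, the gene of the peroxide-reducing enzyme peroxiredoxin 1, without Cre, and are called controls. The 3 mice labelled Prdx1(lox/lox);Alb-cre carried the same floxed alleles and a Cre recombinase driven by the albumin promoter, which is active in hepatocytes, and are called knockouts. Both groups were 8 weeks old when they were put on MCD and stayed on it for 5 weeks. The labels do not spell MCD out, and in liver studies it usually means a diet lacking methionine and choline. Only the knockouts carried Cre, so an effect of Cre and one of the loss of Prdx1 cannot be told apart. No group on another diet was included, so whether a difference needs the diet cannot be told.

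Notch receptors are cut by proteases when a Jagged or Delta-like ligand on a neighbouring cell binds them, and the freed intracellular part enters the nucleus. There it joins the DNA-binding protein RBPJ and Mastermind-like coactivators and switches on repressor genes of the Hes and Hey families. In liver the pathway is best known for the formation of bile ducts, in which Jag1 and Notch2 act, and for arterial and sinusoidal vessels, in which Dll4 and Notch4 are used.

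Deposited counts totalled 58790874 to 78291273 per library, and 20903 to 21073 genes had a count in the controls against 22499 to 23189 in the knockouts. No library stood apart from its group along the first principal component. Prdx1 itself was at 570 to 663 CPM (counts scaled to a common library size with TMM factors) among controls and 75.4 to 111 CPM among knockouts, as the labels have it. The labels name no litter, cage or sequencing batch, and p-values measure the spread among these mice.

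Of the 10 genes, 8 rose in the knockouts, 0 fell, and Notch1 and Dll4 did not pass the test. Of all tested genes, 19.9% were called higher and 18.0% lower by the same test, the quasi-likelihood test of edgeR with p-values adjusted over all tested genes (Benjamini-Hochberg) and a threshold of 0.05. The median log2 fold change of the 10 genes was 0.92, against 0.05 for all tested genes. The 3 targets all rose, as did 3 of 4 receptors and 2 of 3 ligands. In 5 genes (Notch4, Jag1, Jag2, Hey1 and Heyl) the rise was called and at least 2-fold, which held for 12.3% of all tested genes. The lowest knockout lay above the highest control in 9 of the 10 genes, Dll4 being the exception, and in 28.8% of all tested genes. In bulk liver, more cells of a type and more RNA per cell cannot be told apart.

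**Figure D1:**
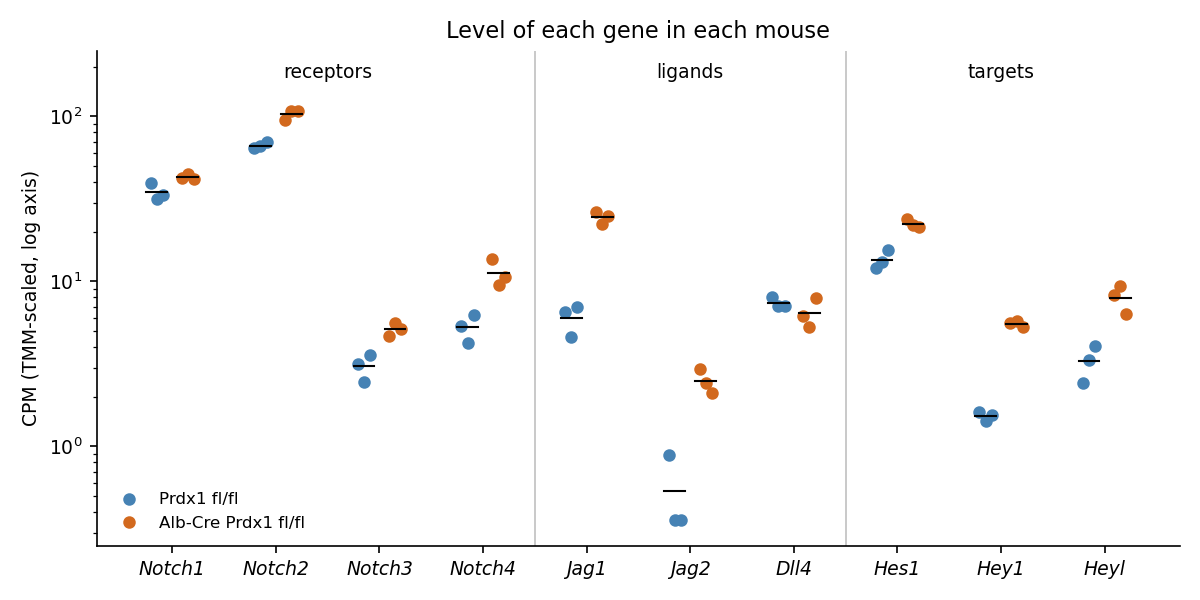
Level of the 10 genes in each mouse, in CPM on a log axis, with receptors, ligands and targets separated by grey lines. Points are single mice and black bars are group means (n = 3 each). The groups are separate for every gene but Dll4, and the widest gaps are those of Jag1, Jag2 and Hey1.

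How libraries are scaled moved all genes together. With library sizes alone the median of all tested genes was 0.41, in place of 0.05 with TMM factors, and 6459 genes were called higher and 1249 lower in place of 3767 and 3415. With that scaling 9 of the 10 genes were called higher, the addition being Notch1, and 0 lower, against 34.1% and 6.60% of all tested genes. Scaling shifts all genes by about the same amount, so a likeness after subtracting the median was fixed in advance. Set against the median of each scaling, the log2 fold changes were nearly the same. That of Notch1 was 0.25 with TMM factors and 0.26 with library sizes alone, that of Jag1 was 1.97 in both, and that of Dll4 was -0.25 in both.

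Notch2, the receptor that bile duct formation depends on, was the receptor with the highest level. It lies on chromosome 3 (98013527 to 98150361, plus strand, GRCm38). Its level was 64.1, 66.0 and 69.7 CPM in the 3 controls and 95.1, 108 and 107 CPM in the 3 knockouts. All 3 knockouts lay well above the controls, and the spread within each group was small. The means were 66.6 ± 2.81 and 103 ± 7.22 CPM (SD, n = 3 each), and the log2 difference was 0.63 ± 0.09 (SE) with an edgeR adjusted p of 0.00125.

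Notch4, a receptor of endothelial cells on chromosome 17 (34564268 to 34588503, plus strand), also rose. The controls were at 5.35, 4.21 and 6.21 CPM, and the knockouts at 13.7, 9.54 and 10.6 CPM. The first knockout was the highest, and no knockout came down to the control range. Notch4 rose by 1.10 ± 0.21 (log2, SE), at an edgeR adjusted p of 0.00496. The summed level of 6 smooth muscle markers was likewise highest in the first knockout (143 CPM, against 94.1 and 84.2 CPM in the others). Tagln, the most abundant of them, was at 81.5, 48.0 and 40.2 CPM in the knockouts. Acta2, Myh11 and Lmod1 were also highest in the first knockout. Des was not, at 25.1, 25.2 and 21.6 CPM, and Cnn1 was highest in the third, at 0.142 CPM. Notch3, a receptor of smooth muscle among other cells, was lowest in the first knockout. The smooth muscle sum was set beside Notch4 with its values known. The summed level of 8 vascular endothelial markers was 302, 305 and 292 CPM, and that of 8 sinusoidal endothelial markers 546, 536 and 479 CPM. The part of these sums in the level of Notch4 was not tested.

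Notch3, a receptor of pericytes, stellate cells and vascular smooth muscle on chromosome 17 (32120820 to 32166852, minus strand), had the least secure rise. Its level was 3.14, 2.46 and 3.59 CPM among controls and 4.64, 5.59 and 5.15 CPM among knockouts. The groups did not overlap, but they lay close together. Notch3 differed by 0.74 ± 0.22 (log2, SE), at an edgeR adjusted p of 0.0289. The call was lost when any 1 library other than control 3 was left out, with edgeR adjusted p from 0.0547 (without knockout 1) to 0.101 (without knockout 2), while the fold change stayed between 0.61 and 0.87 over all 6 omissions.

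Notch1, a receptor found in many cell types, lies on chromosome 2 (26457903 to 26516663, minus strand). Its controls were at 39.6, 31.4 and 33.4 CPM and its knockouts at 42.5, 44.5 and 41.6 CPM. The first control came near the knockouts, which hardly differed from each other. For Notch1 the log2 fold change was 0.30 ± 0.11 (SE), at an edgeR adjusted p of 0.0635 that missed the threshold. Without control 1 it was 0.40, with an edgeR adjusted p of 0.0254, and with library sizes alone 0.67, with an adjusted p of 0.00323. The other omissions gave 0.23 (without control 2) to 0.33 (without knockout 3), and none of these passed. Their edgeR adjusted p ran from 0.108 (without knockout 3) to 0.178 (without knockout 2).

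The annotation places other genes over some receptors, and whether counting used the strand is not given in the sources used here. An antisense gene, Gm17276, covers 21024 bases of the Notch3 locus, and reads from both could then not be told apart. Gm17276 was counted at 0.131 CPM among controls and 0.296 CPM among knockouts, far below Notch3. The transcript 0610009E02Rik, on the strand opposite to Notch1, was counted at 0.804 and 0.495 CPM.

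Jag1, the ligand whose loss impairs bile ducts, had the lowest adjusted p of the 10 genes. It lies on chromosome 2 (137081456 to 137116644, minus strand). Controls had 6.53, 4.60 and 6.95 CPM and knockouts 26.2, 22.4 and 24.8 CPM. Every knockout was more than the sum of any pair of controls. The means were 6.02 ± 1.25 and 24.5 ± 1.92 CPM (SD, n = 3 each), a ratio of 4.06. On the log2 scale Jag1 rose by 2.02 ± 0.18 (SE), at an edgeR adjusted p of 0.000186, and it stayed between 1.86 and 2.14 when each library was left out in turn.

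Jag2, the second Jagged ligand, on chromosome 12 (112907819 to 112929776, minus strand), was the least abundant of the 10. It had 0.892, 0.359 and 0.359 CPM among controls and 2.95, 2.44 and 2.12 CPM among knockouts. In deposited counts that is 50, 21 and 21 against 200, 221 and 179, where a read pair is worth about 4 counts. The first control was the highest of its group, and all knockouts lay above it. Jag2 rose by 2.22 ± 0.45 (log2, SE), at an edgeR adjusted p of 0.00690, and the standard error was the largest of the 10 genes.

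Dll4, a Delta-like ligand made by arterial and sinusoidal endothelium, was the ligand that did not pass the test. It lies on chromosome 2 (119325784 to 119335962, plus strand). The controls were at 8.08, 7.11 and 7.08 CPM, and the knockouts at 6.17, 5.26 and 7.95 CPM. The third knockout lay within the control range and the others below it. The log2 fold change was -0.20 ± 0.19 (SE) with TMM factors and 0.16 with library sizes alone, with edgeR adjusted p of 0.462 and 0.523, so neither a direction nor a difference was shown.

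Upstream sequences are shown for Notch2 and Notch4, as receptors that both rose and whose promoters differ in base composition, and for Jag1, as the ligand with the lowest adjusted p. They are the bases before the start site in RefSeq on GRCm38.p6 that lie outside every exon of GENCODE M21, written 5′ to 3′ on the strand of the gene. Capitals mark the GC box GGGCGG or its complement CCGCCC, which SP1-type factors can bind. The stretches are chr3:98013288-98013526 (plus strand) for Notch2, chr17:34564045-34564267 (plus strand) for Notch4 and chr2:137116645-137116770 (minus strand) for Jag1.
Notch2: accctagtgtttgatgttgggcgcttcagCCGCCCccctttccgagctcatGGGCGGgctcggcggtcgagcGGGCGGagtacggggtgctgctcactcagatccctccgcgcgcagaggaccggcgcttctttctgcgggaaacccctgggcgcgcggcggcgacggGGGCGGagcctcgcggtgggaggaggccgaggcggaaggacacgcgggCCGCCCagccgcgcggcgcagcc
Notch4: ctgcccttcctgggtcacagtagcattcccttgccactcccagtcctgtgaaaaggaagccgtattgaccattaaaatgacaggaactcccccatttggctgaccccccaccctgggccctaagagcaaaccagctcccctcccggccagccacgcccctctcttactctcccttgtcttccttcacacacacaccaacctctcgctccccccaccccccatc
Jag1: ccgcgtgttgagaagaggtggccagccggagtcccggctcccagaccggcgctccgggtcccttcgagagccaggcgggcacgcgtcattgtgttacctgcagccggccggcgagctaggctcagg

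In windows of 250 bases before the RefSeq start, searched on both strands, Notch2 held 5 GC boxes and 34 CpG dinucleotides. Notch4 held 0 GC boxes and 4 CpG, and Jag1 held 0 GC boxes and 20 CpG. Of the 10 genes, 7 matched an entry of the promoter table, and Hes1, Hey1 and Heyl did not. In the same windows Notch1 and Jag2 held 5 GC boxes each, Notch3 held 4 and Dll4 held 2, and 32.7% of 32851 promoters of the same length held at least 1. The core of the RBPJ motif, TGGGAA or its complement TTCCCA, was in 0 of the 7 windows and in 21.6% of all promoters, which says only that these letters are not in these windows. Genes with and without GC boxes were both among those that rose.

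The 3 target genes all rose. Hes1, a repressor that answers to Notch and to other signals, lies on chromosome 16 (30064384 to 30067796, plus strand). It had 12.0, 13.1 and 15.5 CPM among controls and 23.8, 21.8 and 21.2 CPM among knockouts. Each knockout exceeded the highest control. Hes1 rose by 0.72 ± 0.13 (log2, SE), at an edgeR adjusted p of 0.00395.

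Hey1, a related repressor known from endothelium, also rose. On chromosome 3 (8663359 to 8667256, minus strand), it was at 1.61, 1.42 and 1.54 CPM among controls and at 5.60, 5.74 and 5.32 CPM among knockouts. The mice of each group were close to each other, and the group means were 1.52 ± 0.0947 and 5.55 ± 0.213 CPM (SD, n = 3 each). Its log2 fold change was 1.87 ± 0.20 (SE), at an edgeR adjusted p of 0.000399.

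Heyl, a Hey-family repressor of vascular mural cells, lies on chromosome 4 (123233556 to 123249875, plus strand). Controls had 2.41, 3.33 and 4.07 CPM and knockouts 8.24, 9.38 and 6.33 CPM. The third knockout was the lowest of its group and still above every control. Heyl rose by 1.29 ± 0.25 (log2, SE), at an edgeR adjusted p of 0.00559.

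**Figure D2:**
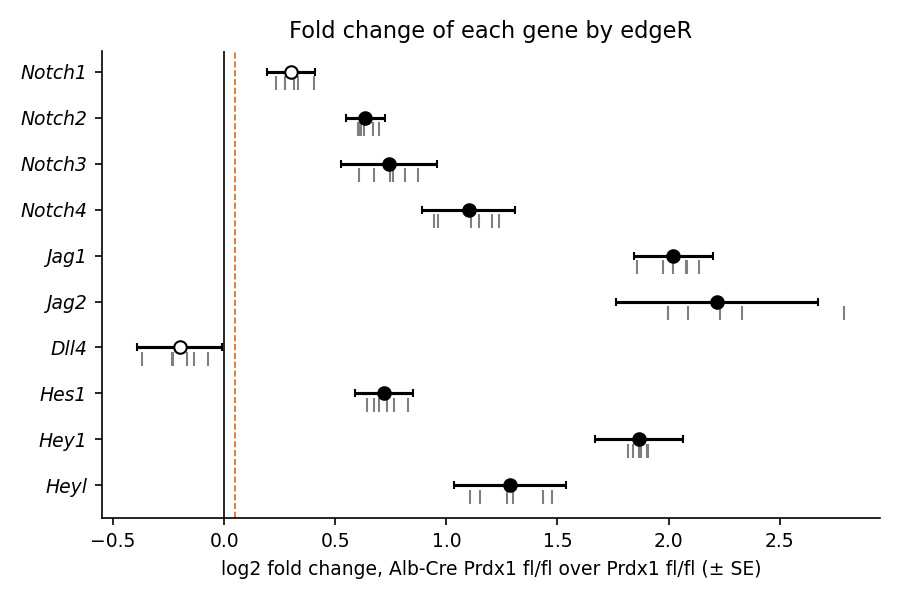
Log2 fold change of the 10 genes, knockouts over controls, by edgeR, with bars for the standard error. Filled points passed the threshold, open points did not, grey ticks are the values with each library left out in turn, and the dashed line is the median of all tested genes (0.05). Jag1, Jag2 and Hey1 lie near 2 and Dll4 lies just below 0.

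Levels of different genes can be set side by side per length, in the deposited FPKM, a fragment count per transcript length and sequencing depth, which are not TMM-scaled. In the controls Hes1 (5.33 FPKM) and Notch2 (4.97 FPKM) led and overlapped each other. Below them came Notch1 (1.97 FPKM), Dll4 (1.55 FPKM) and Jag1 (0.830 FPKM), each apart from the gene above it. Notch4 (0.520 FPKM), Heyl (0.513 FPKM), Hey1 (0.371 FPKM) and Notch3 (0.305 FPKM) followed, each overlapping its neighbour, and Jag2 (0.0613 FPKM) was last. In the knockouts Hes1 (11.2 FPKM) and Notch2 (9.82 FPKM) again led and overlapped. Jag1 (4.30 FPKM) now came next, apart from Notch1 (3.09 FPKM) below it. Hey1 (1.74 FPKM), Dll4 (1.71 FPKM), Heyl (1.60 FPKM) and Notch4 (1.43 FPKM) overlapped as neighbours, and Notch3 (0.649 FPKM) and Jag2 (0.365 FPKM) closed the order.

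The order of the ligands differed between the groups. Jag1 made up 33.4%, 29.3% and 38.6% of the summed FPKM of the 3 ligands in the controls and 69.0%, 69.2% and 64.3% among knockouts. Dll4 made up 62.7%, 68.8% and 59.8% among controls and 24.6%, 24.6% and 31.2% among knockouts. The controls thus had more Dll4 than Jag1 in every mouse, and the knockouts more Jag1 than Dll4. The share of Jag2 was 2.44% ± 1.21 and 5.73% ± 1.05 (SD, n = 3 each). These are shares among the 3 ligands followed here, not among all Notch ligands. Dll1, a further Delta-like ligand named with its value known, is not in the sum. It was at 0.807, 0.781 and 1.12 FPKM among controls and 1.82, 1.69 and 1.72 FPKM among knockouts. With Dll1 in the sum every ligand share would be smaller. A share within a library does not depend on how libraries are scaled. By an exact two-sided permutation test, p was 0.1 for each of these 3 shares, the smallest value that 3 against 3 allows, and 0.14 after Benjamini-Hochberg adjustment over the 7 shares tested.

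The receptors kept their order. Notch2 held 64.1% ± 3.11 of the summed receptor FPKM in the controls and 65.5% ± 2.45 in the knockouts, with overlapping mice (exact permutation p = 0.6). Notch3 held 3.91% ± 0.552 and 4.32% ± 0.271, also overlapping (exact permutation p = 0.4). Notch1 held 28.5%, 24.1% and 23.4% among controls and 21.2%, 20.8% and 19.7% among knockouts, without overlap. Notch4 held 6.75%, 5.60% and 7.64% among controls and 12.0%, 7.88% and 8.83% among knockouts, also without overlap. For both the exact permutation p was 0.1, the smallest possible, and 0.14 adjusted over the 7 shares. The summed receptor FPKM was 7.25 to 8.08 in the controls and 14.7 to 15.6 in the knockouts. In TMM-scaled CPM the sums were 104 to 113 and 156 to 167, a smaller difference. CPM do not divide by length, and unlike the FPKM they are divided by the TMM factors. These factors were 0.869 to 0.887 in the controls and 1.10 to 1.16 in the knockouts.

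**Figure D3:**
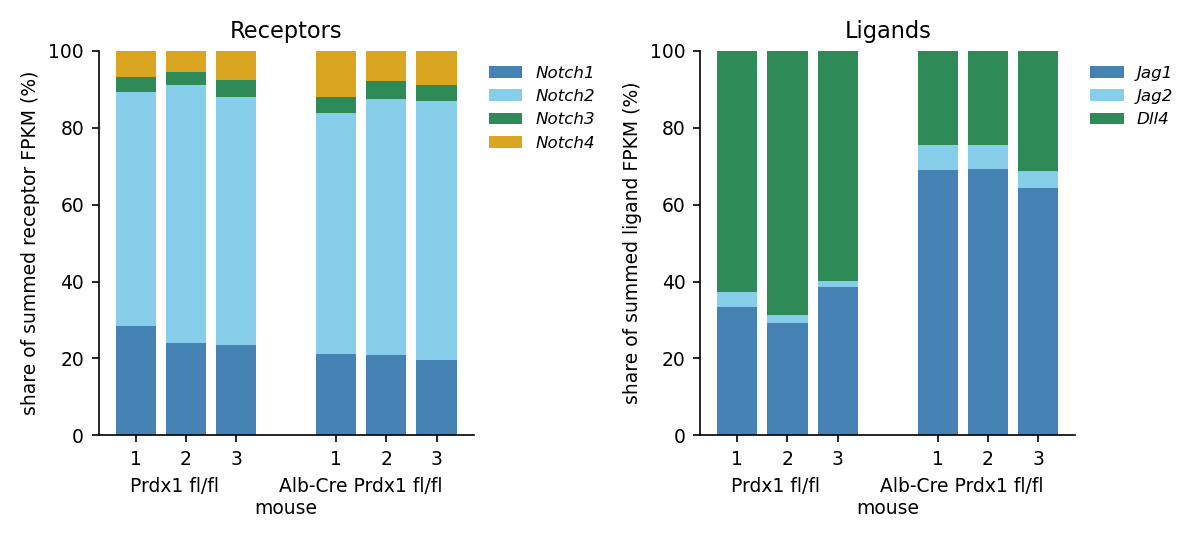
Share of each receptor (left) and each ligand (right) in the summed FPKM of the receptors or ligands followed here, in percent, with 1 bar per mouse. The ligand sum holds Jag1, Jag2 and Dll4 and leaves out Dll1. Jag1 and Dll4 exchange rank between the genotypes in all 6 mice, while Notch2 holds 60.8% to 67.2% of the receptor sum in every mouse.

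The genes with the pattern most like a member's were sought among 13104 genes with a mean of at least 1 CPM, leaving out gene models with Gm-number or Rik names. The measure was the root mean square difference of log2(CPM + 1) over the 6 libraries, after each gene was centred on its own mean. Nearest to Jag1 were Spsb1 (0.0693), Prtg (0.0742) and Afap1 (0.0880). Nearest to Notch2, the member with the highest CPM, were Tifab (0.0371), Plekhm2 (0.0380) and Abca5 (0.0386). Because 1 is added before the logarithm, a low gene such as Prtg (0.290 CPM among controls and 3.30 CPM among knockouts) can lie close to Jag1 with a larger fold change.

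Outside the 10 genes, 49 further genes of the pathway were listed from general knowledge, and 45 were tested. Earlier results of these data were known when the list was made, so its shares describe the list and are no independent support. In the knockouts 21 were higher, 3 were lower and 21 did not pass, with a median log2 fold change of 0.33. The share called higher was 46.7%, against 19.9% of all tested genes, and the share called lower 6.67%, against 18.0%. With library sizes alone 31 were higher and 1 lower. Leaving out a library gave 15 to 19 higher and 3 lower. The 15 came without control 1 or without knockout 2.

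Among ligands, Dll1 and Dlk1 were tested and both were higher, and both are named after their values were seen. Dll1, a Delta-like ligand, went from 4.76 ± 0.979 to 7.22 ± 0.283 CPM (edgeR adjusted p = 0.0403). Its call was lost without any 1 library other than control 3, with edgeR adjusted p from 0.0830 (without knockout 2) to 0.111 (without control 1), and also with no count filter (0.0504) and with the replicate block (0.0540). Dlk1, a non-canonical ligand of fetal liver, had no counts in any control and 1.43, 1.17 and 0.402 CPM among knockouts. Against a floor of 12 deposited counts over the control group, about 3 read pairs, it was at least 14.4-fold higher. The ligand-like genes Dll3, Dlk2 and Dner were not tested, and Dll3 and Dlk2 had no counts in any library.

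Of 5 further target genes tested, 1 rose and 4 did not pass. Among those that did not pass, Hey2 and Hes7 are named for their low counts. Hey2 had 8, 8 and 12 deposited counts among controls and 35, 18 and 0 among knockouts. Hes7 had 23, 16 and 9 against 38, 28 and 44. At such depth the test could hardly show a difference. Dtx1, a Deltex ubiquitin ligase, went from 0.607, 0.222 and 0.274 CPM among controls to 3.76, 4.62 and 5.23 CPM among knockouts. Dtx1 rose by 3.62 ± 0.43 (log2, SE), at an edgeR adjusted p of 0.000636. Nrarp, a feedback inhibitor named after its value was seen, was at 4.50, 3.21 and 4.79 CPM and at 7.69, 6.71 and 3.33 CPM. Knockout 3 lay among the controls, and the log2 fold change was 0.50 ± 0.33 with an edgeR adjusted p of 0.275. Without knockout 3 it was 0.80, with an edgeR adjusted p of 0.0462. The other omissions gave 0.28 (without knockout 1, edgeR adjusted p = 0.625) to 0.62 (without control 3), among them 0.35 without control 2, and none of these passed. Hes5 had no counts in any library.

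Of 13 nuclear factors, 7 rose, 1 fell and 5 did not pass. The Mastermind-like coactivator Maml2 rose by 1.92 ± 0.25 (log2, SE), with an edgeR adjusted p of 0.00101. Rbpj, the DNA-binding partner of all 4 receptors, named after its value was seen, went from 27.0 ± 2.50 to 39.3 ± 3.33 CPM (edgeR adjusted p = 0.00687). The acetyltransferase Kat2b stood at -0.40 ± 0.08, with an edgeR adjusted p of 0.00648 that became 0.757 with library sizes alone.

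Of 10 proteases that process the receptors, 4 rose, 2 fell and 4 did not pass. The ligand-dependent cut is made by Adam10, named after its value was seen, which went from 58.3 ± 6.25 to 100.4 ± 7.79 CPM (edgeR adjusted p = 0.00128). Furin, which cuts receptors on the way to the surface and also many other precursor proteins, went from 441 ± 12.7 to 225 ± 47.3 CPM (edgeR adjusted p = 0.00212). Psen2, a catalytic subunit of gamma-secretase, stood at -0.50 ± 0.12 (edgeR adjusted p = 0.0124), and the adjusted p became 0.390 with library sizes alone.

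Of 5 glycosyltransferases, which tune the choice of ligand, 2 rose and 3 did not pass. Both were Fringe enzymes and are named after their values were seen. Lfng went from 9.05 ± 1.85 to 20.0 ± 2.32 CPM and Mfng from 2.48 ± 0.498 to 6.42 ± 0.919 CPM, with edgeR adjusted p of 0.00221 and 0.00268. The other Fringe gene, Rfng, likewise picked with its value known, was at 21.5 ± 1.82 CPM among controls and 17.3 ± 1.06 CPM among knockouts, with every knockout below the controls, and missed the threshold (-0.31 on the log2 scale, edgeR adjusted p = 0.0633). Of 10 genes of trafficking and turnover, 5 rose and 5 did not pass. The Deltex genes Dtx3 and Dtx4 were among them, at 2.01 ± 0.18 and 0.82 ± 0.11 (log2, SE), with edgeR adjusted p of 0.000199 and 0.00101.

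**Figure D4:**
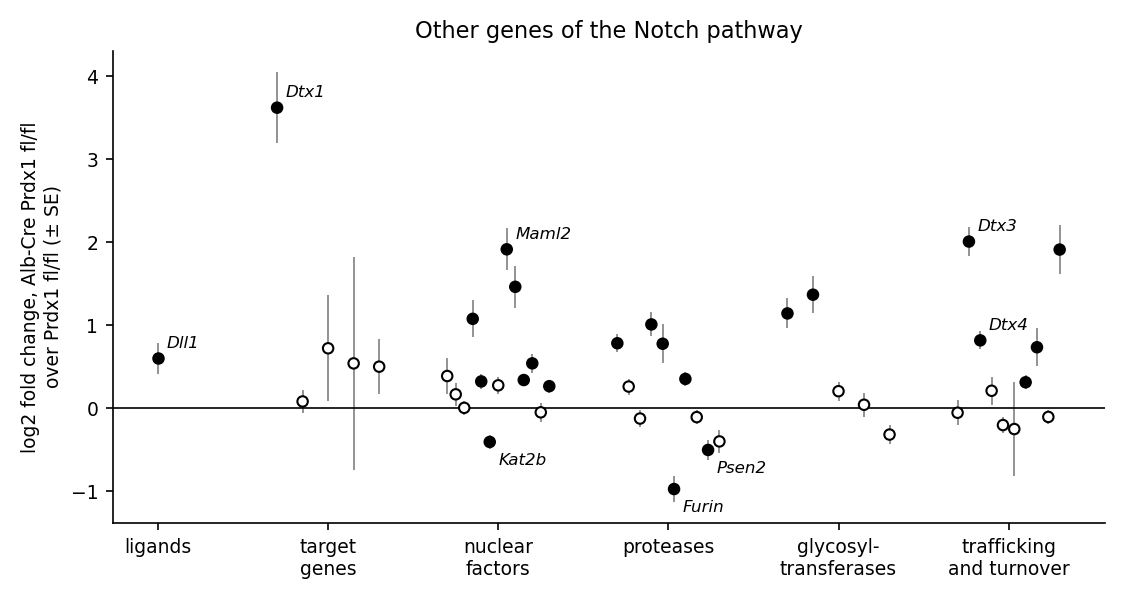
Log2 fold change (± SE) of 44 other genes of the pathway by role, knockouts over controls, leaving out Dlk1, which had no counts in the controls. Filled points passed the threshold and open points did not. Dtx1 has the highest value and Furin the lowest.

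Markers of several liver cell types moved beside these genes. The summed level of 9 cholangiocyte markers was 86.8 to 98.6 CPM among controls and 1152 to 1340 CPM among knockouts, a ratio of 13.7. Most of that sum was Spp1, with means of 52.6 CPM among controls and 980 CPM among knockouts. All 9 markers rose, with a median log2 fold change of 3.98 and a range of 1.14 to 4.90. The ratio for Jag1, which cholangiocytes express, was 4.06. Of 10 stellate and fibroblast markers 9 rose, and their sum was 780 to 847 CPM among controls and 2300 to 2671 CPM among knockouts, a ratio of 3.04. All 8 macrophage markers rose, from a sum of 884 to 917 CPM to one of 2050 to 2079 CPM. Of 9 hepatocyte markers 8 fell, and the sum was 91226 to 113374 CPM among controls and 52303 to 65844 CPM among knockouts.

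Markers of blood vessels were mixed. Of 8 vascular endothelial markers, 4 rose and 0 fell, and their sum was 216 to 238 CPM among controls and 292 to 305 CPM among knockouts, a ratio of 1.31. Plvap and Cdh5, the most abundant of them, were at -0.01 and 0.41 on the log2 scale, and the median of the 8 was 0.51. Cd34, a marker also of other cells and named after its value was seen, rose from 4.88 ± 1.03 to 45.5 ± 0.390 CPM (edgeR adjusted p = 3.27e-05). Of 8 sinusoidal endothelial markers, 1 rose and 4 fell, with sums of 546 to 594 CPM and 479 to 546 CPM, a ratio of 0.916. Their median log2 fold change was -0.53, and the knockouts lay wholly below the controls in 6 of them. Stab1, among the most abundant, rose by 0.71 ± 0.10, while F8, which was picked with its value known, fell by 1.05 ± 0.12 (log2, SE), with edgeR adjusted p of 0.00125 and 0.000644. The ratio for Notch4 was 2.15 and that for Dll4 was 0.870. Of 6 smooth muscle markers 3 rose, Tagln, Acta2 and Des. Myh11, Cnn1 and Lmod1 did not pass, at -0.28, -1.42 and 1.35 on the log2 scale. The sums were 47.1 to 59.4 CPM among controls and 84.2 to 143 CPM among knockouts, with means of 26.2 and 56.6 CPM for Tagln alone. Their ratio was 2.06, beside 1.67 for Notch3 and 2.44 for Heyl. Of 5 lymphocyte markers 2 rose, at sums of 2.05 to 2.85 and 4.45 to 5.95 CPM. Cnn1 (smooth muscle), Cd79a and Ptprcap (lymphocyte) were at 0 in at least 1 library, and no marker was at 0 in all 6. The part of these shifts in the levels of the 10 Notch genes was not tested.

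**Figure D5:**
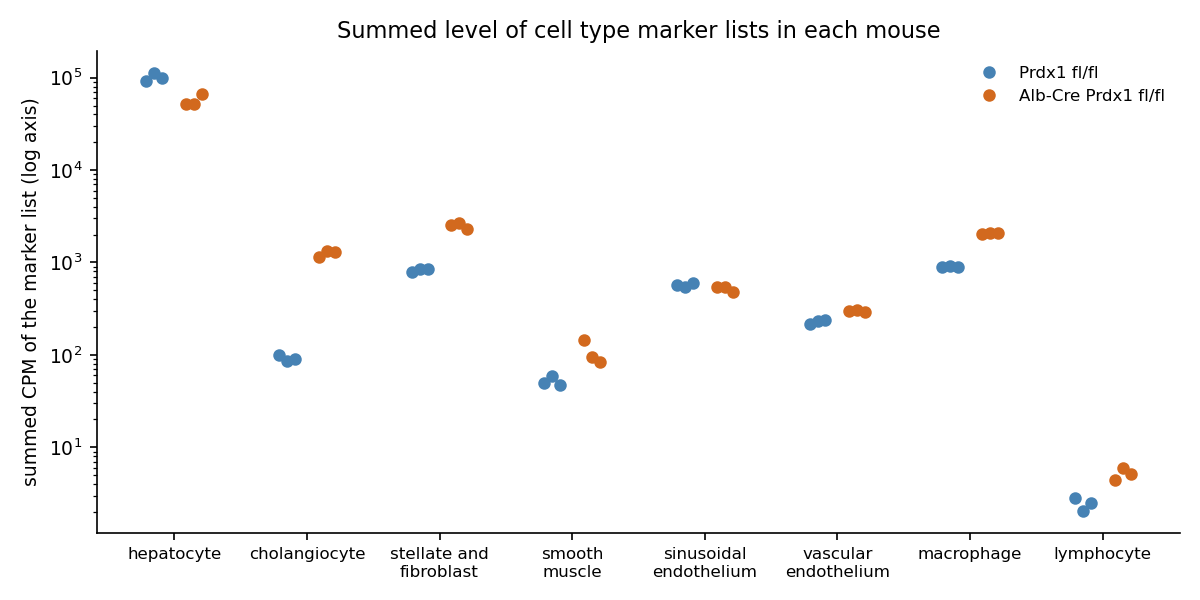
Summed CPM of each marker list in each mouse, on a log axis, controls in blue and knockouts in orange (n = 3 each). The cholangiocyte sum shows the widest gap, the hepatocyte sum is lower in every knockout, and the sinusoidal endothelial sums of the groups meet near 546 CPM.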

How the data were processed

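The authors deposited 1 table that gives every gene a count and an FPKM value in each of the 6 libraries. The submitters' processing notes list cutadapt 1.9, HISAT2 2.0.4, StringTie 1.3.4d, UMI-tools, edgeR and DESeq2 without saying what each did, and the build mm9. Positions in the table nevertheless fit GRCm38: 55141 of its gene identifiers are in GENCODE M21, and 51957 of these (94.2%), with all 10 members, have identical positions there. The deposited counts are whole numbers but were handled as estimated counts, since small values cluster at multiples of 4 (in control 1, 854 genes at 4 against 280 at 3 and 167 at 5). No counting intervals are therefore given. The deposited FPKM were made by the authors and are 0.0001 where the count is 0. Per the file headers, library columns carry wt or AlbCRE and a number. AlbCRE is the knockout label, and wt was read as the only other genotype.

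The counts were fitted with edgeR 4.0.16 under R 4.3.3. The filter was filterByExpr (minimum count 10, minimum total 15), scaling used TMM factors, and the model held genotype alone. The quasi-likelihood test was two-sided, with Benjamini-Hochberg adjustment over all tested genes at 0.05. Standard errors came from the F statistic. The fit was tested on simulated data. The members and gene lists were chosen with earlier results of these data known. All 10 members are named. Of the other pathway genes, up to 4 with the smallest p in each direction are named, and exceptions are marked. A further cholangiocyte marker is not reported here and was left out of its list. Alternatives were RLE factors, library sizes alone, no filter, counts divided by 4, DESeq2 1.42.0, limma 3.58.1 on log2(FPKM + 0.5), with 1 or 0.1 in place of 0.5, a replicate block, and leaving out each library.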

Additional observations from a re-analysis of the deposited data

How the results depend on the processing

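Of the 10 genes, 7 to 9 were called higher and 0 lower under every alternative run, and 7 to 8 when a library was left out. Notch2, Notch4, Jag1, Jag2, Hes1, Hey1 and Heyl kept direction and call under all 15. Notch3 lost its call with the replicate block (0.75, edgeR adjusted p = 0.0599) and in 5 omissions. The fold change of Dll4 turned to 0.16 with library sizes alone and to 0.10, 0.084 and 0.12 with limma on log2(FPKM + 0.5), log2(FPKM + 1) and log2(FPKM + 0.1), without a call. Notch1 was called in 6 of 15 alternatives. The deposited FPKM are not TMM-scaled, and the median of all genes was 0.25 in them with 0.5 added.

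Of all tested genes, 6459 were higher and 1249 lower with library sizes alone. With limma on log2(FPKM + 0.5), log2(FPKM + 1) and log2(FPKM + 0.1), 6671, 6650 and 6667 were higher and 1364, 1364 and 1362 lower. Of the other pathway genes 1 was lower with library sizes alone and with each limma setting, and 5 with DESeq2, in place of 3. The cause was not tested. Kat2b and Psen2 lost their calls with library sizes alone and with limma on FPKM. The share difference of Notch2 ran from -0.248 (without control 1) to 2.84 percentage points when a library was left out. Deviations of same-numbered libraries correlated at 0.0130, 0.0746 and 0.0502, in no pair above 0.1, and those of other pairs at -0.0671 to 0.0130. Each library correlated best with its own number (knockout 1 equally with control 3), a hint from the data, not the design, and the numbers were not taken as pairs. With the replicate block 7 of the 10 genes and 18 of the other pathway genes were higher. Among the 10 genes depth limits Jag2 most, at 21 to 50 deposited counts in the controls.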
